A study of Mus musculus with 6 samples.

Results

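RLTR9, RLTR13 and RLTR45 are groups of mouse long terminal repeats (LTRs) of the ERVK family of endogenous retroviruses. Their RNA was followed in cultured fibroblasts with and without β-actin. The members were chosen by name and family, not by any measured value: every repeat subfamily annotated as ERVK whose name starts with RLTR9, RLTR13 or RLTR45 and then does not go on with a digit. This gave 38 of the 1336 repeat and structural RNA rows in the data. There were 13 RLTR9 rows, 23 RLTR13 rows and 2 RLTR45 rows. Of these, 37 had enough counts to be tested between the genotypes, and RLTR9A4 did not.

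The wild-type (WT) group was 3 libraries of mouse embryonic fibroblasts of the BALB/c strain, labelled as from embryos of 10.5 days. The knockout (KO) group was 3 libraries of fibroblasts of the same strain and stage that lack β-actin, the Actb gene product that builds the cytoskeleton and is also found in the nucleus (Actb-/-). No other allele or agent is named for either group. The series describes the 3 libraries of each genotype as biological replicates, and nothing in the labels says whether they came from separate embryos or from passages of a single line. The p-values therefore measure the spread between these libraries.

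An ERVK provirus is an internal coding region flanked by 2 LTRs, and most insertions have since recombined to a solitary LTR. An LTR carries promoter and enhancer sequence, so a solitary copy can act on a neighbouring host gene. RLTR9 copies are known as binding sites of pluripotency factors in mouse embryonic stem cells, and RLTR13D6 has also been described there. RLTR13D5 and RLTR13B copies are known as enhancers in mouse trophoblast stem cells, the precursors of the placenta. Fibroblasts are neither, and enhancer use by itself need not give a stable RNA, so the values below describe RNA that maps to these repeats and not enhancer activity.

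Each value is a sum over all genomic copies of a subfamily, so it has no chromosome position. Reads from a copy inside a gene transcript cannot be told apart from RNA that starts in the LTR. A larger number of copies or a longer consensus raises a row's total, and neither was available per row. Levels of different rows are therefore given as row totals, not per length. For the same reason, no member could be compared with another per copy.

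The 6 libraries held between 7708630 and 19288620 counts, of which ribosomal RNA took 32.4% (WT replicate 1) to 84.8% (KO replicate 1). Levels are given as normalized CPM, CPM of an effective library size from the TMM method (a trimmed mean of log ratios between libraries), which follows the bulk of repeat rows and not the ribosomal RNA. The 38 members together held 4372 counts in WT replicate 2, the library with the fewest, and 14440 in WT replicate 1, the library with the most. The median member had 61.5 and 236.5 counts in those libraries.

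RNA of these LTRs was present in fibroblasts of both genotypes at low levels, and its sum was even between libraries on the TMM scale. Summed over the 38 members, the level was 599.1, 568.6 and 610.8 normalized CPM in the WT libraries, in replicate order, and 609.4, 610.1 and 634.6 in the KO libraries. The genotypes overlapped, with KO replicate 1 and KO replicate 2 just under the highest WT library. The highest library was 1.12 times the lowest on this scale, which is set to make the bulk of repeat rows alike. Before that scaling, the members held 14440 of 7708630 counts in WT replicate 1 and 4372 of 17937809 in WT replicate 2. For single tested members the highest library was 1.42 times the lowest at the median, and 3.16 times at most (RLTR9A3A). Over the same libraries the sum of all ERVK rows varied by 5.12 times, from 16548 normalized CPM in WT replicate 1 to 84738 in KO replicate 1, which are also the ends of the ribosomal RNA range. The members therefore took 3.62% of ERVK counts in WT replicate 1 and 0.698% in WT replicate 2. The mean share was 1.94% ± 1.51 (SD, n = 3) in WT and 1.66% ± 1.07 in KO, a difference of -0.279 percentage points that was smaller than either SD.

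That spread came from 3 abundant ERVK rows outside the 3 groups, MMERVK9C_I-int, RLTR19-int and RLTR25A, which were the ERVK rows with a mean of at least 100 normalized CPM and over 5 times as much in the highest library as in the lowest. With those rows left out of the denominator, a choice made after the values were seen, the members took 4.94%, 4.59% and 4.998% of ERVK counts in WT and 4.91%, 4.998% and 5.16% in KO. The means were 4.84% ± 0.219 (SD, n = 3) in WT and 5.02% ± 0.126 in KO. The difference of 0.182 percentage points, opposite in sign to that over all ERVK rows, was smaller than the SD in WT and larger than that in KO. No member was among the 3 rows that varied so widely.

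RLTR13C1 had the highest total of the 38 rows and was the 21st of 282 ERVK rows by mean level. It stood at 115.1, 130.04 and 132.3 normalized CPM in WT and 123.7, 111.4 and 122.7 in KO. RLTR45-int, the internal region that belongs with the RLTR45 LTR, ranked 33rd. These 2 rows held 34.7% of the members' summed level. Of the 38 rows, 22 had a mean under 10 normalized CPM, 13 lay from 10 to under 30, and 3 were at 30 or more. The median member was at 8.57 normalized CPM, against 19.5 for the other 244 ERVK rows and 48.9 for 11 rows of RLTR11, RLTR17, RLTR25 and RLTR41, other LTR groups known from gene regulation in stem cells.

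**Figure D1:**
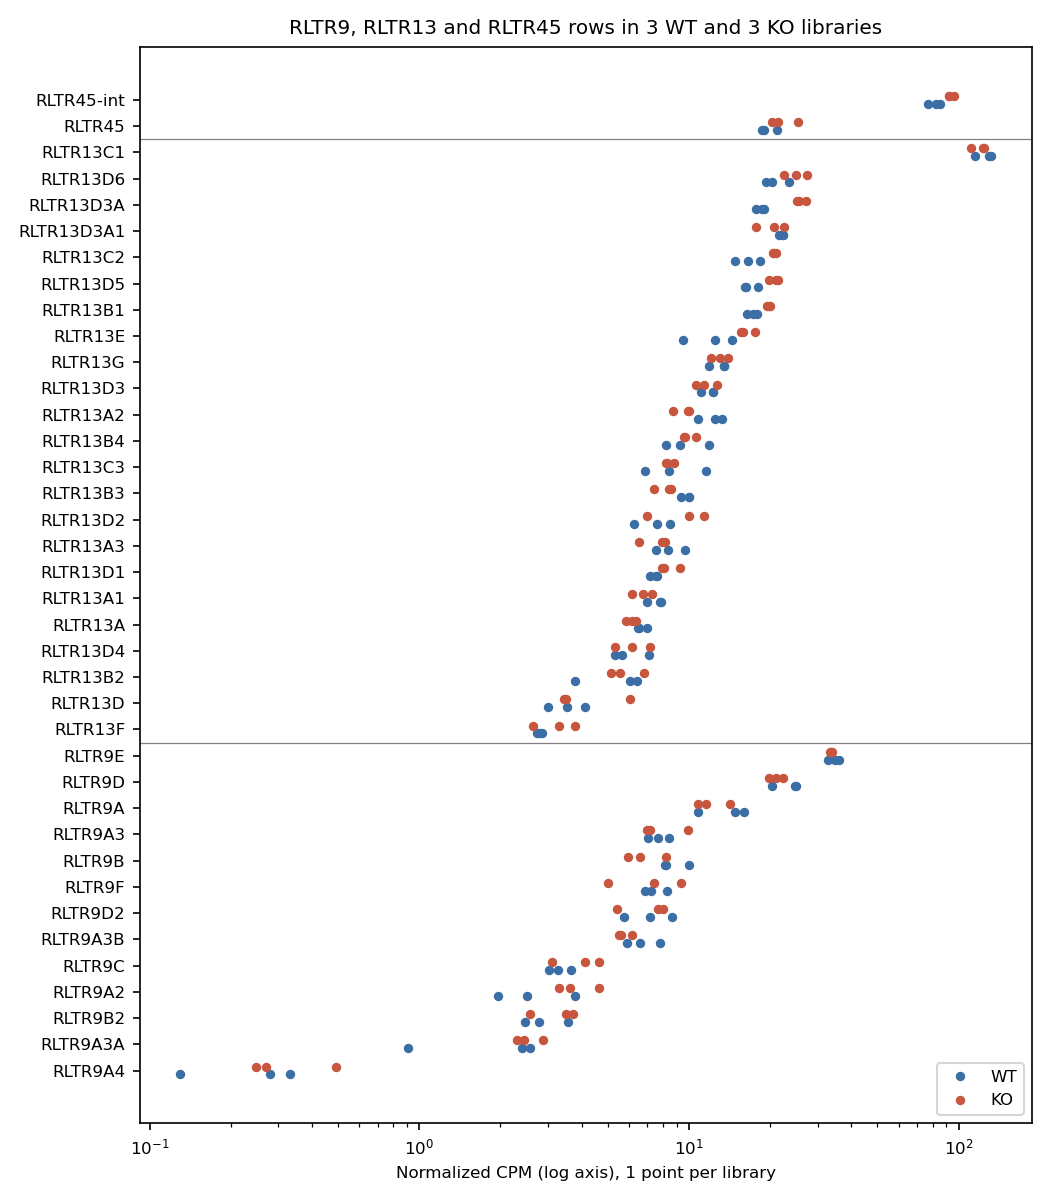
Normalized CPM of each of the 38 members on a log axis, with 1 point per library, 3 WT (blue) and 3 KO (red). RLTR13C1 and RLTR45-int lie to the right of all other rows, RLTR9A4 lies far to the left, and for most rows the colours overlap.

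The comparison between genotypes asked whether loss of β-actin went with a change in RNA from these LTRs. RLTR13D3A, an RLTR13 LTR, was higher in KO, and it was the only member to pass the test. No member was lower past the threshold in edgeR, DESeq2 or limma-voom, and 3 that were lower had an unadjusted p under 0.05 in edgeR. The other 36 tested members did not pass, among them all rows of RLTR9 and RLTR45 and all those named above for stem or trophoblast cells. So 1 of 37 tested members passed (2.70%), against 69 of all 1193 tested rows, 5.78% (quasi-likelihood test of edgeR, with p adjusted over all tested rows by Benjamini-Hochberg and a threshold of 0.05). For rows higher in KO the share was 2.18% over all tested rows, and for rows lower in KO 3.60%. Of the 238 other tested ERVK rows, 13 were higher and 7 lower past the threshold (8.4%). In a fit without structural RNA rows, 41 of 1124 rows passed.

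With all 6 libraries on the TMM scale, the members were spread evenly around no change. In 18 the fitted fold change was above 0 (52.3% of all tested rows) and in 19 below, with a median log2 fold change of -0.01, and the median over all tested rows was 0.01. RLTR13B4, RLTR13D4 and RLTR13G count as below 0, with fitted values of -0.02, -0.01 and -0.02. Their KO means were nonetheless 1.02, 1.03 and 1.01 times their WT means. The members' median moved with single libraries left out. It was 0.153, -0.0635 and 0.0394 without WT replicates 1, 2 and 3, and 0.101, 0.0327 and -0.0709 without KO replicates 1, 2 and 3. The median over all tested rows stayed between 0.00163 and 0.0117 in those fits. All directions are relative to the TMM scale. Scaled by total counts, ribosomal RNA included, the median was -0.42 in the members and -0.36 in all tested rows, and the fold changes above 0 given below, that of RLTR13D3A excepted, turn below 0. On the TMM scale the range ran from -0.38 (RLTR9B) to 0.51 (RLTR13D3A). The median size of the change, without its sign, was 0.19 on the log2 scale in the members, 0.15 in the other ERVK rows and 0.15 in all rows. The members' median standard error was 0.13, against 0.10 in the other ERVK rows, so the members were also measured less precisely. In 10 of 37 members (27.0%) the KO libraries lay all above or all below the WT libraries, close to the 25.8% of all tested rows that did so. The KO libraries were all above in 7 of the 37 members and all below in 3 of the 37, against 12.4% and 13.4% of all tested rows. At an unadjusted p under 0.05 in edgeR there were 10 of 37 members (27.0%), against 20.9% of all tested rows. Of these, 8 were among the members whose genotypes did not overlap.

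**Figure D2:**
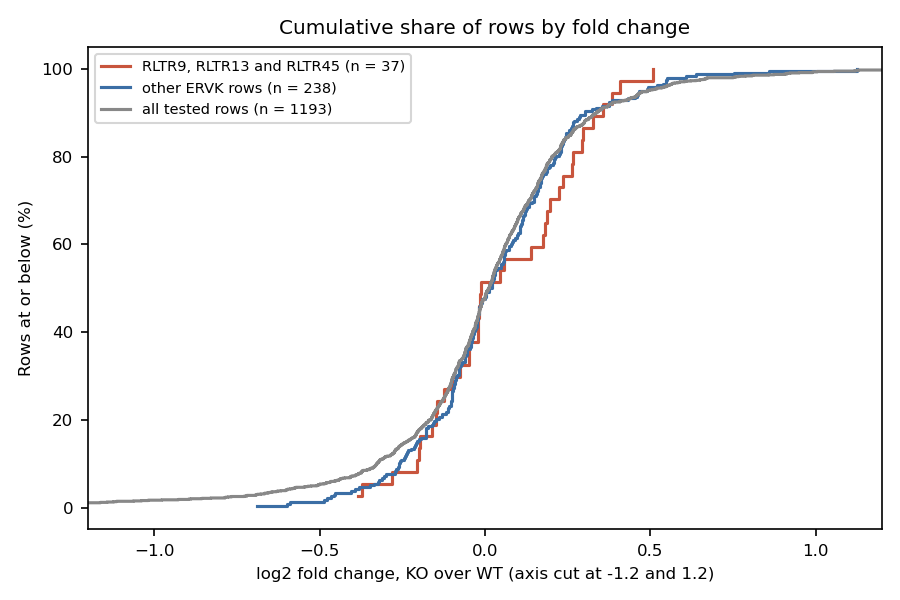
Cumulative share of rows (%) by log2 fold change of KO over WT, for 37 members, 238 other tested ERVK rows and all 1193 tested rows. The 3 curves cross 50% near 0, and the members' curve ends at 0.51.

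RLTR13D3A stood at 17.7, 18.6 and 18.9 normalized CPM in WT and at 25.2, 25.7 and 27.1 in KO, again in replicate order. All 3 KO libraries were above all 3 WT libraries, and the gap between the genotypes was larger than the range within either. These levels rest on 143 to 517 counts per library. The row had the 13th smallest p of the 1193 tested rows. It rose by 0.51 ± 0.07 (standard error) on the log2 scale (edgeR adjusted p = 0.00474). The KO mean was 1.41 times the WT mean, and the 95% interval of the fitted ratio was 1.28 to 1.58. Its libraries of a genotype differed by no more than counting allows, with a chi-square per degree of freedom of 0.452, where counting error alone gives about 1.

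The call held when each of the 6 libraries was left out in turn, at log2 fold changes of 0.47 to 0.54 and edgeR adjusted p-values from 0.0136 to 0.0274. Without WT replicate 1 and KO replicate 2 together, the libraries with the least ribosomal RNA, the log2 fold change was 0.49 and did not pass (edgeR adjusted p = 0.0810, 4 libraries). Scaled by total counts, ribosomal RNA included, the log2 fold change was 0.16 and did not pass (edgeR adjusted p = 0.998). On that scale the median of all rows lay at -0.36.

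**Figure D3:**
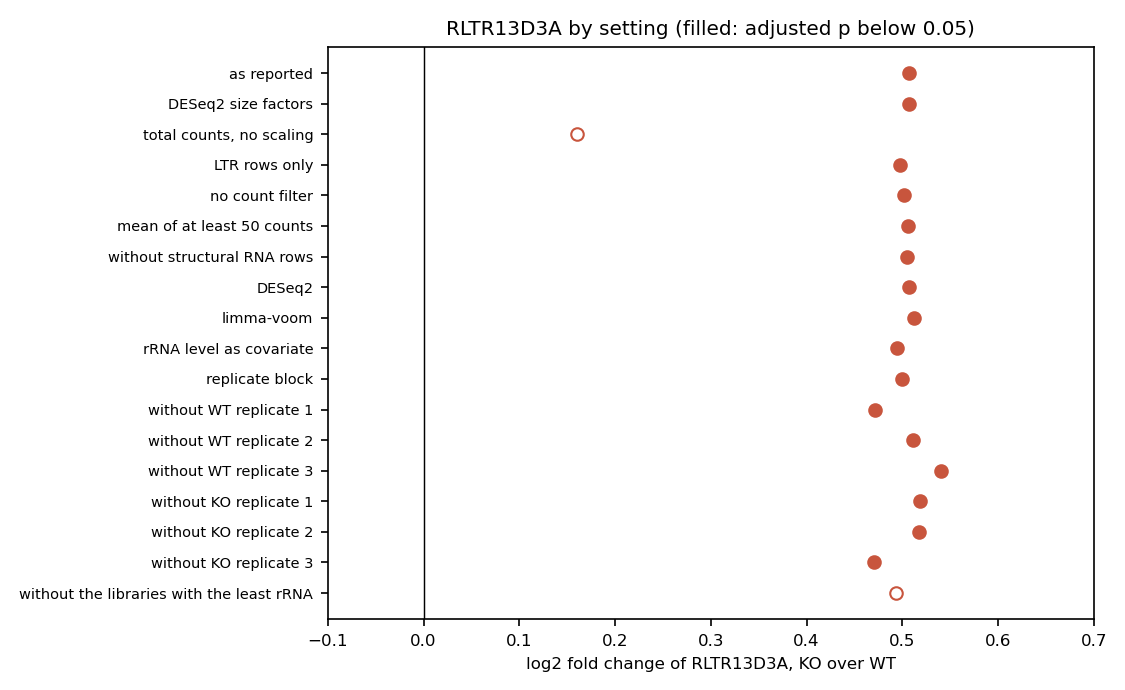
log2 fold change of RLTR13D3A, KO over WT, as reported and in 17 other settings, with filled points where the adjusted p was below 0.05. All points except that for total counts lie between 0.47 and 0.54, and the open points are total counts and the fit without the 2 libraries lowest in ribosomal RNA.

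The rows with the nearest names did not share this difference. RLTR13D3A1 was at 22.2, 22.4 and 21.6 normalized CPM in WT and 17.8, 22.5 and 20.6 in KO, with overlapping genotypes and a change of -0.10 on the log2 scale (edgeR adjusted p = 0.579). That change was -0.0334 without KO replicate 1 and -0.19 without KO replicate 2. RLTR13D3 was at 12.3, 11.1 and 12.3 in WT and 10.7, 11.3 and 12.7 in KO. A ratio of counts between rows of the same library does not depend on how libraries are scaled. The ratio of RLTR13D3A to RLTR13D3A1 was 0.795, 0.831 and 0.877 in WT and 1.42, 1.14 and 1.31 in KO. Its means were 0.835 ± 0.0414 (SD, n = 3) and 1.29 ± 0.141. The ratio of RLTR13D3A to RLTR13D3 was 1.43, 1.68 and 1.54 in WT and 2.37, 2.27 and 2.14 in KO. Both ratios were higher in all KO libraries, whatever the scaling. They were chosen after the value of RLTR13D3A was seen, so they carry no test. The sources used here do not say how reads that match several of these similar rows were shared out.

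Among the 9 RLTR13D rows only RLTR13D3A passed, and the fitted directions differed. In 6 the fitted fold change was above 0 and in 3 below, with a median of 0.24 and a lowest value of -0.10. The KO libraries were all above in 3 of the 9 rows, RLTR13D3A included, and all below in 0. Over all tested rows those shares were 12.4% and 13.4%. RLTR13D5, known from trophoblast stem cells, was at 18.0, 16.3 and 16.1 normalized CPM in WT and 21.4, 21.01 and 19.8 in KO. Its genotypes did not overlap, but it did not pass (log2 fold change 0.29, standard error 0.08, edgeR adjusted p = 0.0678). RLTR13D6, described in embryonic stem cells, was at 23.4, 19.2 and 20.3 in WT and 22.5, 24.9 and 27.3 in KO. Here the genotypes overlapped, since KO replicate 1 was below WT replicate 1 (log2 fold change 0.24, edgeR adjusted p = 0.218). Summed over the 9 rows, the level was 119.5, 109.2 and 115.1 in WT and 122.3, 134.7 and 138.8 in KO, all KO libraries being above. The means were 114.6 ± 5.13 (SD, n = 3) in WT and 131.9 ± 8.62 in KO, and RLTR13D3A is part of that sum.

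The RLTR13A rows were the opposite in direction, with no call. All 4 had fold changes below 0, with a median of -0.18, and their summed level was 34.9 ± 1.98 in WT and 29.9 ± 1.92 in KO. RLTR13A2 was at 12.5, 10.8 and 13.2 normalized CPM in WT and 9.92, 9.98 and 8.70 in KO. All its KO libraries were below all its WT libraries (log2 fold change -0.37, standard error 0.11, edgeR adjusted p = 0.101). RLTR13A also did not overlap between genotypes, with 6.47 to 6.96 in WT and 5.86 to 6.34 in KO, a small gap. RLTR13A1 and RLTR13A3 overlapped.

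The RLTR13B rows, the other trophoblast stem cell group, split evenly in their fitted direction. RLTR13B1 was at 17.9, 16.4 and 17.3 normalized CPM in WT and 19.8, 19.9 and 19.5 in KO, all KO libraries being above (log2 fold change 0.19, edgeR adjusted p = 0.166). RLTR13B3 was at 9.999, 10.01 and 9.33 in WT and 8.58, 7.40 and 8.43 in KO, all KO libraries being below (log2 fold change -0.28, edgeR adjusted p = 0.210). RLTR13B2 was at 6.39, 3.77 and 6.05 in WT and 5.15, 5.56 and 6.81 in KO. RLTR13B4 was at 11.8, 8.19 and 9.26 in WT and 9.56, 9.63 and 10.7 in KO. In both of these WT replicate 2 was the lowest WT library and the genotypes overlapped. Their fitted log2 fold changes were 0.06 and -0.02, although the KO mean of RLTR13B4 was 1.02 times its WT mean. The sum of the 4 rows was 42.2 ± 3.89 in WT and 43.7 ± 1.52 in KO.

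Among the RLTR13C rows, RLTR13C1 overlapped between the genotypes (log2 fold change -0.08, edgeR adjusted p = 0.581), at -0.14 without WT replicate 1, -0.0286 without WT replicate 3 and -0.0296 without KO replicate 2. It also had the largest spread relative to counting error of the members, with a chi-square per degree of freedom of 9.45. RLTR13C2 was at 18.4, 14.8 and 16.5 normalized CPM in WT and 20.7, 20.4 and 21.0 in KO. Its KO libraries were all higher and lay close together (log2 fold change 0.30, standard error 0.09, edgeR adjusted p = 0.0953). RLTR13E, at 12.4, 9.49 and 14.5 in WT and 17.5, 15.6 and 15.9 in KO, had the second largest fold change of the RLTR13 rows at 0.39. Its KO libraries were all higher too, and it did not pass (standard error 0.13, edgeR adjusted p = 0.149). RLTR13C2, RLTR13E, RLTR13A2, RLTR13A, RLTR13D3A1, RLTR13D4 and RLTR13G were singled out after their values were seen.

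**Figure D4:**
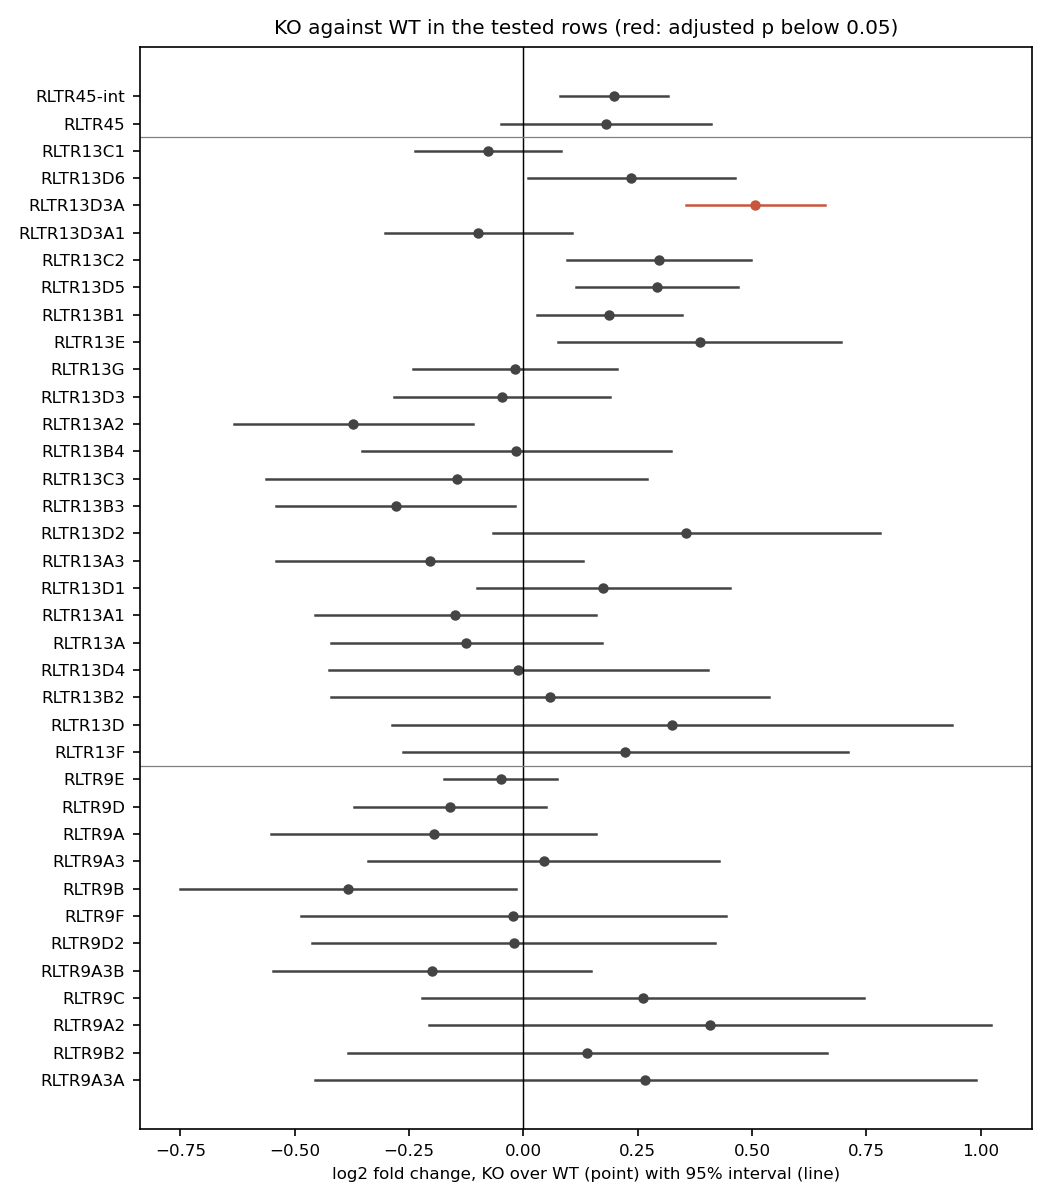
log2 fold change of KO over WT with its 95% interval for the 37 tested members, grouped as RLTR45, RLTR13 and RLTR9 from top to bottom. RLTR13D3A (red) is the only row that passed, and intervals widen toward the rows with fewer counts at the foot of each group.

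In RLTR9, the embryonic stem cell group, no genotype separated from the other in any row. Of 12 tested rows 5 had fold changes above 0 and 7 below, with a median of -0.02. The summed level was 120.9 ± 10.7 normalized CPM (SD, n = 3) in WT and 115.8 ± 6.21 in KO. In 0 of 12 rows did the libraries of the genotypes fail to overlap, and 1 row had an unadjusted p under 0.05 in edgeR. In RLTR13, by comparison, 9 of 23 rows did not overlap, and over all tested rows 25.8% did not. That difference between the groups was not tested.

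RLTR9E was the most abundant RLTR9 row, at 34.8, 32.8 and 36.1 normalized CPM in WT and 33.8, 33.3 and 33.5 in KO. Its highest library was 1.10 times its lowest, the smallest range of the tested members. The log2 fold change was -0.05 with a 95% interval of -0.17 to 0.07 (edgeR adjusted p = 0.661), and it was -0.0827 without WT replicate 2 and -0.00721 without WT replicate 3. RLTR9D was at 24.98, 20.3 and 24.8 in WT and 19.8, 21.1 and 22.3 in KO, and WT replicate 2 fell among the KO values (log2 fold change -0.16, edgeR adjusted p = 0.379). RLTR9D2 was at 7.18, 5.72 and 8.63 in WT and 5.39, 7.65 and 8.03 in KO, with a log2 fold change of -0.02.

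The RLTR9A rows had no common direction, 3 of 5 tested rows lying above 0. RLTR9A was at 14.9, 10.8 and 15.9 normalized CPM in WT and 10.8, 14.2 and 11.6 in KO (log2 fold change -0.20, edgeR adjusted p = 0.518), and its log2 fold change was -0.31 without WT replicate 2, -0.0925 without WT replicate 3 and -0.34 without KO replicate 2. RLTR9A3 was at 8.42, 7.02 and 7.66 in WT and 6.98, 7.15 and 9.91 in KO. RLTR9A3B was at 6.56, 7.80 and 5.92 in WT and 5.51, 5.61 and 6.14 in KO. The genotypes overlapped in all 3 of these rows. RLTR9A2 was at 3.78, 1.95 and 2.51 in WT and 3.31, 3.63 and 4.65 in KO, on only 15 to 91 counts. RLTR9A3A was at 2.41, 0.910 and 2.58 in WT and 2.45, 2.88 and 2.29 in KO, and its lowest value rests on 7 counts. RLTR9A4 had 1 to 8 counts per library and 26 in all, which is too few to compare.

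RLTR9B had the smallest p in RLTR9 and the largest fitted fall of the members, but it did not pass. It was at 8.13, 8.19 and 10.02 normalized CPM in WT and 8.21, 5.96 and 6.61 in KO. KO replicate 1 lay above WT replicates 1 and 2, so the genotypes overlapped (log2 fold change -0.38, standard error 0.16, edgeR adjusted p = 0.218). RLTR9B2 was at 3.57, 2.47 and 2.78 in WT and 2.57, 3.72 and 3.51 in KO.

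The RLTR45 rows are an LTR and its internal region, and neither passed. RLTR45-int was at 76.7, 85.3 and 82.7 normalized CPM in WT and 96.4, 91.7 and 92.1 in KO. All KO libraries were above all WT libraries (log2 fold change 0.20, standard error 0.05, edgeR adjusted p = 0.0649). RLTR45 was at 21.2, 18.6 and 18.9 in WT and 20.3, 21.3 and 25.3 in KO, with overlapping genotypes (log2 fold change 0.18, edgeR adjusted p = 0.361). Without KO replicate 3 its log2 fold change was 0.0756. The ratio of internal region to LTR counts was 3.61, 4.59 and 4.37 in WT and 4.74, 4.31 and 3.64 in KO. It did not differ beyond its spread, with means of 4.19 ± 0.513 (SD, n = 3) and 4.23 ± 0.554 (exact two-sided permutation p = 0.9, the smallest possible being 0.1).

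**Figure D5:**
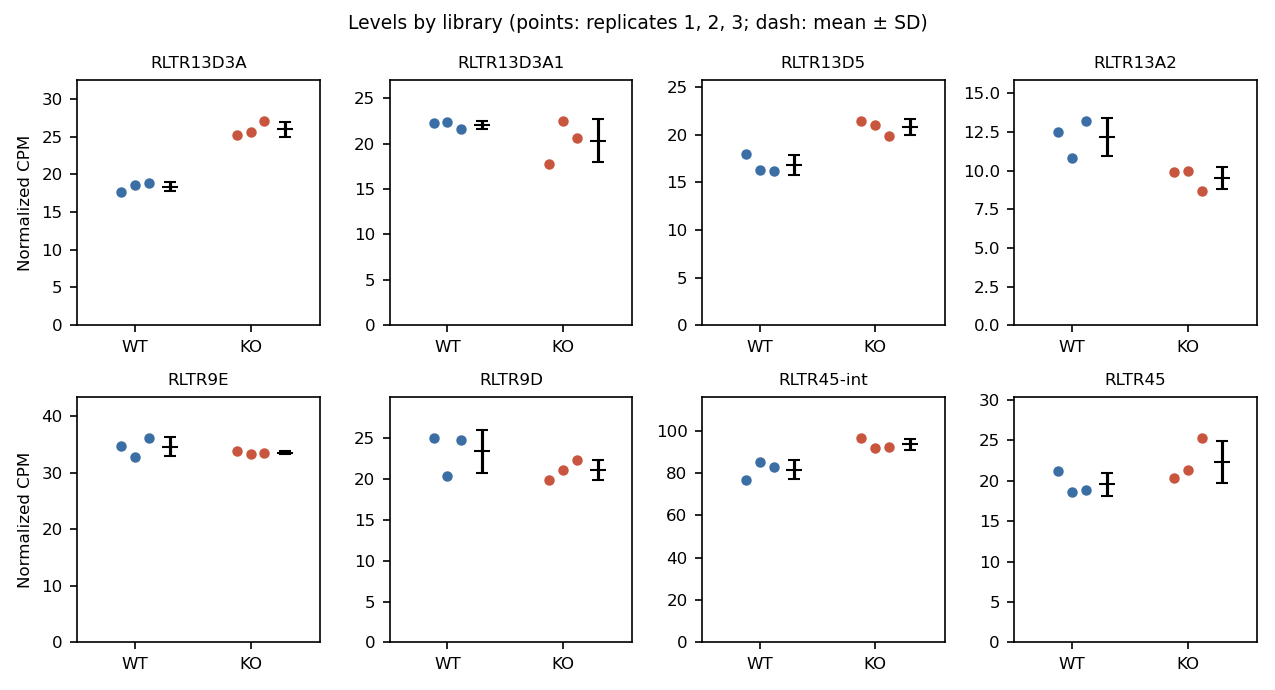
Normalized CPM per library for 8 rows drawn from the 3 groups, with points for replicates 1, 2 and 3 and a dash with bars for the mean ± SD; each axis starts at 0. RLTR13D3A separates WT at 17.7 to 18.9 from KO at 25.2 to 27.1, and RLTR13D3A1 and RLTR9E overlap.

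For most members the intervals were narrow enough to bound the change. Of the 36 tested members that did not pass, 26 had a 95% interval that lay within a 1.5-fold change in either direction. The interval reached past 1.5-fold upward in 8 and downward in 2. Apart from RLTR13E and RLTR13A2, these 10 rows had means of 130 counts per library or fewer. RLTR9A3A was the least bounded, with an interval of 0.729 to 1.98 for the ratio of KO to WT. The interval of RLTR9A2, 0.867 to 2.03, reached the highest. A p that misses the threshold does not show that the genotypes were alike.

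The shallowest library for these rows was also often the lowest. WT replicate 2, with 84.1% ribosomal RNA, was the lowest WT library in 27 of 38 members, and WT replicate 1 was the highest in 18. In KO, replicate 1, with 84.8% ribosomal RNA, was the lowest in 18 of 38 members and replicate 3 the highest in 18. With the ribosomal RNA level as a covariate RLTR13D3A passed at 0.49 (edgeR adjusted p = 0.00349) and no other member did, whereas without WT replicate 1 and KO replicate 2 its 0.49 did not pass (edgeR adjusted p = 0.0810). Without WT replicate 2, the log2 fold change of RLTR13D3A was 0.51.

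Of 11 rows of RLTR11, RLTR17, RLTR25 and RLTR41, the other LTR groups known from stem cells, 0 passed, against 5.78% of all tested rows. Of these rows 4 had fold changes above 0 and 7 below, with a median of -0.06, and 2 had an unadjusted p under 0.05 in edgeR. The 11 rows include RLTR25A, which varied widely within a genotype, from 862.9 normalized CPM in WT replicate 1 to 12992 in WT replicate 2. Among all 104 tested ERVK rows with RLTR names that are not members, these 11 included, 4 were higher and 3 lower past the threshold, with a median log2 fold change of 0.02. MERVL-int, the internal region of an element active in the 2-cell embryo, was at 94.2 to 105.6 normalized CPM in WT and 94.8 to 119.0 in KO. Its LTR, MT2_Mm, ran from 59.0 to 958.9 in WT and from 93.4 to 745.3 in KO, lowest in the libraries with the least ribosomal RNA. Protein-coding genes are not among the rows, so marker genes of fibroblasts, stem cells and trophoblast, and Actb itself, were not analysed here.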

How the data were processed

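Per the labels' protocols, total RNA libraries were made with a TruSeq Ribo-Zero kit. The submitters' processing notes name the tools FastQC 0.11.5, Trimmomatic and Bowtie2 and the builds mm10 and GRCm38. The sources used here do not give the repeat counter, repeat annotation or treatment of strand. What the authors deposited are estimated counts per repeat subfamily, fractional by their file names, written as whole numbers and without normalization.

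Groups and replicate numbers came from the sample titles. The analysis used edgeR 4.0.16 in R 4.3.3: filterByExpr kept 1193 of 1336 rows, TMM set effective library sizes, and the quasi-likelihood test compared KO with WT over all rows, with Benjamini-Hochberg adjustment at 0.05. Intervals came from the test statistic and its degrees of freedom. Chi-square per degree of freedom compared each row's counts with its genotype's mean level. The procedure was tested on simulated data. Values per library were planned for members past the threshold, the 3 most abundant and the smallest p of each group, and rows known from stem or trophoblast cells. The members, lists and tests were chosen with earlier results of these data known. The labels state no pairing. Same-numbered WT and KO libraries did not deviate together (correlations -0.39, -0.34 and 0.01 for numbers 1, 2 and 3), so numbers were not used as pairs. With 3 libraries per genotype that differ widely in ribosomal RNA, these correlations cannot show whether samples were paired. Alternatives included DESeq2 1.42.0 and limma-voom (limma 3.58.1). Consensus sequences of these LTRs were not used here.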

Additional observations from a re-analysis of the deposited data

How the results depend on the processing

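RLTR13D3A was the member that passed in 15 of 17 alternatives, and no other member passed in any of them. The count of members that passed was 1 in those 15, also when each library was left out (1 to 1), and 0 with total counts as library sizes and 0 without WT replicate 1 and KO replicate 2. The replicate block also left 1 member (RLTR13D3A, edgeR adjusted p = 0.0357), and its count over all rows was 24, all of them among the 69. The labels do not say that numbers pair the samples. Over all rows the count was 0 with total counts (3 rows at an unadjusted p under 0.05 in edgeR), 77 with DESeq2 and its own size factors, 34 with LTR rows only, 41 without structural RNA rows and 9 without WT replicate 1 and KO replicate 2, and leaving out single libraries gave 22 (KO replicate 2 left out) to 69 (KO replicate 1 left out), with 29 for KO replicate 3 and 44, 43 and 28 for WT replicates 1, 2 and 3. Fewer rows than the 1193 were fitted with LTR rows only (627), without structural RNA rows (1124) and without WT replicate 1 and KO replicate 2 (1161). The cause of the changes in count was not tested.

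With total counts, the fold change of RLTR13D3A was 0.16. On that scale RLTR13D5, RLTR13C2, RLTR13E, RLTR13B1, RLTR13D6, RLTR45-int and RLTR45 turned to -0.11, -0.15, -0.0264, -0.20, -0.20, -0.14 and -0.25, and RLTR9A2, RLTR9A3, RLTR9A3A, RLTR9B2 and RLTR13B2 to -0.16, -0.42, -0.14, -0.27 and -0.43. Rows near 0 also turned elsewhere: RLTR13B4 was at 0.000556 with DESeq2, 0.0606 with the rRNA level as covariate, 0.0392 with the replicate block and 0.219 without WT replicate 1 and KO replicate 2, and RLTR9D2 at 0.0111 with that covariate. With single libraries left out, RLTR9A3 ran from -0.148 to 0.147, RLTR9D2 from -0.115 to 0.125, RLTR13B2 from -0.0850 to 0.203 and RLTR13B4 from -0.103 to 0.177. The summed levels of RLTR9, RLTR13 and RLTR45 had mean log2 differences of -0.06, 0.06 and 0.19, and of -0.27, -0.15 and -0.02 with total counts. These are differences between genotype means of log2 levels, whereas the row values are fitted fold changes. The sums and the rows are therefore not directly comparable, least of all with total counts.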
